A study of Mus musculus with 16 samples.

Results

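The comparison described here is that of Gαq mice with wild type (WT) mice at 4 weeks of age, in left ventricular (LV) RNA, across all genes that were expressed enough to be tested. Mice were taken by the genotype and age that their labels give, which selected 8 of the 16 mice of the series, 4 Gαq and 4 WT. The study sequenced LV myocardium from both genotypes at 4 and 20 weeks of age. Gαq mice carry extra Gαq, a G protein α subunit, in the heart alone, and WT mice serve as controls. All mice were male, of strain FVB/N, and the labels of the 4-week mice name no treatment. The promoter that drives the transgene is not given in the sources used here, and counts of Gnaq, the gene of Gαq, do not separate the transgene from the endogenous gene. The 4-week mice came from 2 cages, 559480 (mice 1 and 2 of each genotype) and 554815 (mice 3 and 4 of each genotype), so that each cage held 2 Gαq and 2 WT mice. The mouse numbers are names given here.

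Depth was similar across the mice. The library totals were 19820832, 23734932, 25122813 and 24965170 counts in WT mice 1 to 4 and 26991920, 20278689, 22758667 and 24524400 counts in Gαq mice 1 to 4. Abundance is given as CPM, the counts of a gene relative to the library total after TMM scaling, and as RPKM, the same relative to gene length, where different genes are compared. A gene is called when its adjusted p in edgeR's quasi-likelihood test is under 0.05, and values after ± are standard deviations over 4 mice.

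Gαq couples receptors for norepinephrine, angiotensin II, endothelin and thrombin to phospholipase Cβ. The phospholipase splits a membrane lipid into inositol trisphosphate, which releases calcium from stores, and diacylglycerol, which activates protein kinase C. In cardiac myocytes this pathway is known for growth of the cell and for the return of genes that are otherwise used before birth.

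The tissue label was checked first. All 7 myocyte markers were present in all 8 mice, and their most abundant gene per length was Myh6, the main myosin heavy chain of the adult mouse ventricle, with a mean of 5736 RPKM. The markers summed to 56970.4, 70709.6, 74351 and 71097 CPM in the WT mice and to 62253, 64325, 63898 and 53771 CPM in the Gαq mice. Among them Ryr2 and Tnni3 were called lower and the other 5 were not called. Atrial markers (Myl4, Myl7, Sln, Bmp10 and Nr2f2) summed to far less, at 64.8, 65.8, 26.2 and 28.1 CPM in the WT mice and 138, 126, 62 and 184 CPM in the Gαq mice. Myl4, Myl7 and Sln were not called (adjusted p = 0.192, 0.401 and 0.0922), although the sums of Gαq mice 1, 2 and 4 lay above every WT sum. Xist had at most 5 counts in any of the 8 mice, and Ddx3y had between 2311 and 3467.

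WT mouse 1 stood apart from the other WT mice. A chi-square per gene between pairs of libraries was 29.4 to 40.8 for the pairs with WT mouse 1, against 9.48 to 13.6 among the other WT mice and 5.95 to 18.6 among the Gαq mice. Its myocyte markers summed to the lowest WT value, 56970.4 CPM, and its fibroblast markers to the highest of all 8 mice, 6865 CPM, against 4051 to 4861 CPM in the other WT mice. Endothelial and macrophage markers were also highest there, at 2097 and 581 CPM. Results are therefore given with all 8 mice and again without WT mouse 1.

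At 4 weeks 1621 of 16786 tested genes were called (9.66%), of which 827 were higher (4.93%) and 794 lower (4.73%) in Gαq mice. The median log2 fold change was 0.64 among the genes called higher, -0.47 among those called lower and -0.01 over all tested genes. A change of at least 2-fold was found in 403 of the called genes, 250 higher and 153 lower. In 1450 of the called genes (89.5%) the values of the genotypes did not overlap, as in 2471 of all tested genes (14.7%). Of 14787 tested genes with at least 10 counts in each of the 8 mice 10.1% were called, and of the 1999 others 6.65%. Without WT mouse 1, 1707 genes were called, 820 higher and 887 lower. Of the 1621 genes, 1357 (83.7%) were called again without this mouse. Within each cage, 2 mice against 2, all 1621 genes had the same direction in both cages, as had 65.0% of all tested genes, but the same mice had selected the 1621. Of these genes 312 were called in both cages.

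**Figure D1:**
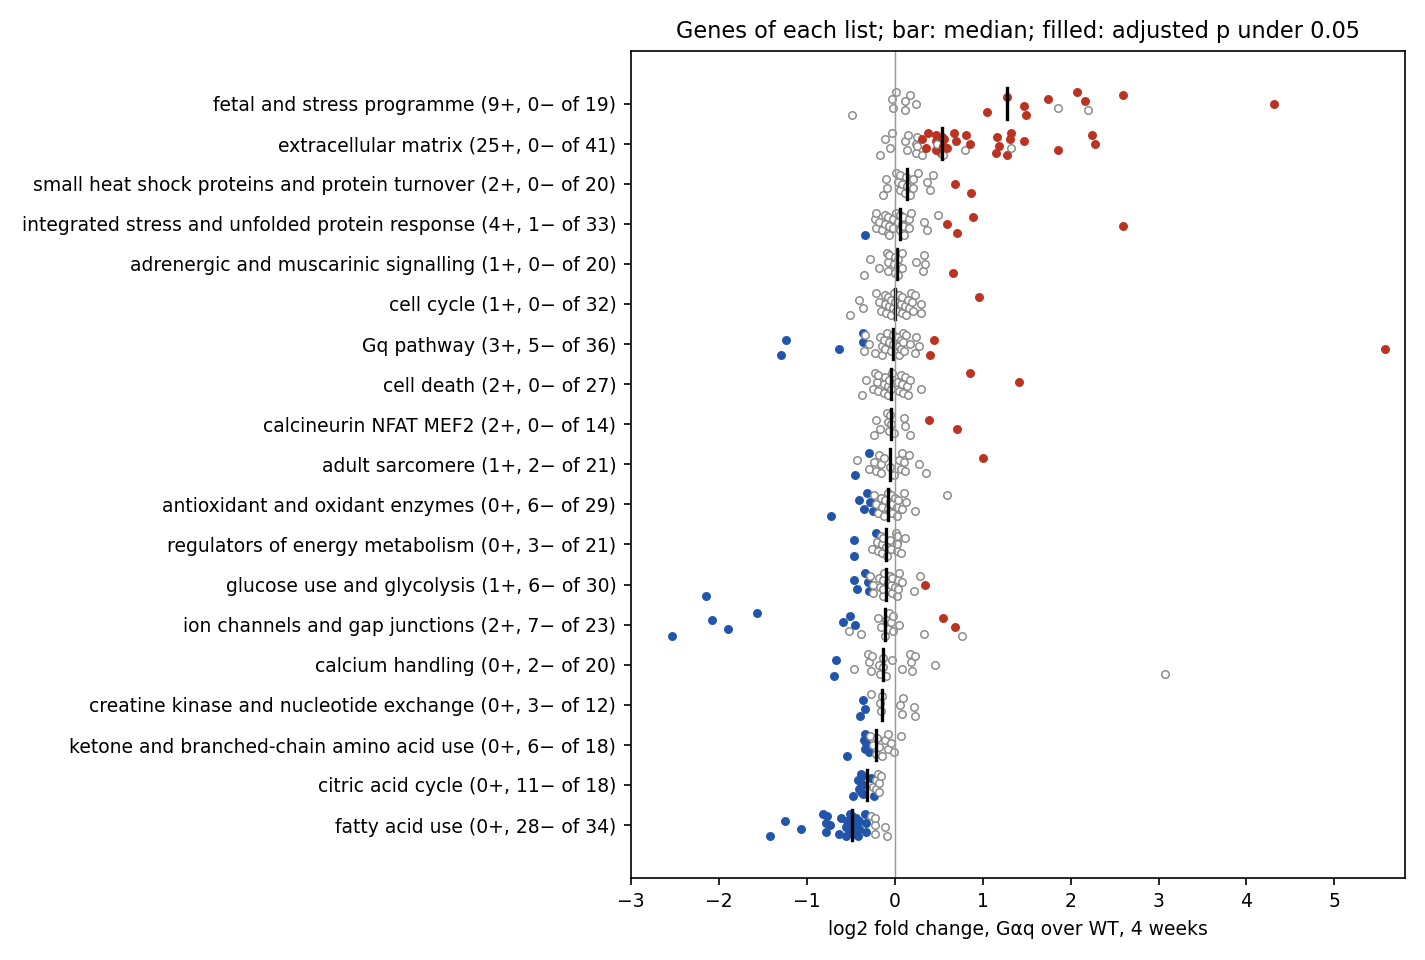
Log2 fold change of Gαq over WT at 4 weeks for each tested gene of 19 gene lists, with lists ordered by their median. Each point is a gene, filled red when called higher and filled blue when called lower, open when not called, and the black bar is the median of the list. The fatty acid and citric acid cycle lists lie wholly below 0, and the fetal and extracellular matrix lists hold called genes above 0 alone.

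Gnaq (ENSMUSG00000024639, chromosome 19, 16132831 to 16387463, plus strand, build GRCm38) was measured at 57.2, 1095, 374 and 386 CPM in WT mice 1 to 4 and at 23451, 23297, 24264 and 20128 CPM in Gαq mice 1 to 4. The genotypes did not overlap, and within WT mouse 2 was the highest and mouse 1 the lowest. Gnaq took 2.14% to 2.44% of all counts in the Gαq mice, against 0.00623% to 0.11% in WT mice. The log2 fold change was 5.58 with a standard error (SE) of 0.69, adjusted p = 3.24e-05, or 47.7-fold. Without WT mouse 2 it was 6.39, and without WT mouse 1 it was 5.21. Per length, Gnaq rose from 77.3 to 3684 RPKM, against 5432 RPKM for Myh6 in the same mice. The absolute gain of 22307 CPM was the largest of any gene. At 20 weeks the mean in Gαq mice was 11459 CPM, with a log2 fold change of 5.05 and an adjusted p of 0.878 for the difference between ages.

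Gnaq is 1 of the 36 tested genes of the Gq pathway list and 1 of its 8 called genes (22.2%, against 9.66% of all genes), which were 3 higher (Gnaq, F2r and Prkca) and 5 lower, with a list median of -0.02 against -0.01 over all genes. Adra1a and Adra1b, α1-adrenergic receptors that signal through Gαq, were lower. Adra1a, the α1A receptor, was at 23.2, 32.7, 24.6 and 29 CPM in the WT mice and at 13.2, 11.8, 12.5 and 9.02 CPM in the Gαq mice. The highest Gαq mouse was below the lowest WT mouse, and the level was 2.36-fold lower (log2 fold change -1.24, SE 0.14, adjusted p = 1.21e-05). Adra1b fell from a mean of 55.2 to 35.7 CPM (log2 fold change -0.63, adjusted p = 0.00181). F2r, the thrombin receptor, rose from 71.3 to 94.1 CPM (log2 fold change 0.40, adjusted p = 0.00233). Agtr1a, a receptor of angiotensin II, was not called (log2 fold change 0.24, adjusted p = 0.318). Ednra, a receptor of endothelin, was not called either (log2 fold change -0.34, adjusted p = 0.0937). Without WT mouse 1, Ednra was called lower at -0.45 (adjusted p = 0.0118). The closest relative of Gnaq, Gna11, had a log2 fold change of 0.01 (adjusted p = 0.945), and Gna14 was too low to be tested.

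Of the effectors, Plcb3, a phospholipase Cβ, was lower (log2 fold change -0.36, adjusted p = 0.00167), as was Itpr2, the main inositol trisphosphate receptor of cardiac myocytes (log2 fold change -0.36, adjusted p = 0.0317). Itpr2 was not called without WT mouse 1 or 2 or Gαq mouse 1, 2, 3 or 4 (adjusted p 0.0549 to 0.107). Plcb1, another phospholipase Cβ, was at 17.1 ± 3.4 CPM in WT and 13.5 ± 1.34 CPM in Gαq mice and was not called (log2 fold change -0.34, adjusted p = 0.147). Prkca, a protein kinase C that lowers contractility, was at 38, 56.2, 47.2 and 41.1 CPM in the WT mice and 65.1, 65, 66.7 and 52.5 CPM in the Gαq mice. Gαq mouse 4 lay within the WT range, and the other Gαq mice above it (log2 fold change 0.45, adjusted p = 0.0109). Rgs2 ends Gαq signals by speeding the hydrolysis of GTP. It was at 137, 66.7, 50.8 and 71.3 CPM in the WT mice and 39.1, 35.9, 24.1 and 33.9 CPM in the Gαq mice, so that all Gαq mice were below all WT mice. The Rgs2 level was 2.45-fold lower (log2 fold change -1.29, SE 0.24, adjusted p = 0.00153). WT mouse 1 was the highest of all, and without it the log2 fold change was -0.92 (adjusted p = 0.00243). The related regulators Rgs3, Rgs4 and Rgs5 were not called, with log2 fold changes of -0.15, -0.29 and -0.06. Without WT mouse 1, 3 genes of the list were called higher and 5 lower, of 37 tested.

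Calcineurin is a phosphatase that calcium activates and that moves NFAT factors into the nucleus. In its list 2 of 14 genes were called (14.3%, against 9.66% of all genes), both higher, and the median was -0.05. Rcan1, a target and inhibitor of calcineurin, was at 65.1, 89.2, 98.3 and 81.4 CPM in the WT mice and 127, 133, 152 and 132 CPM in the Gαq mice. The genotypes did not overlap (log2 fold change 0.71, adjusted p = 0.0443). Leaving out any mouse other than WT mouse 3 took Rcan1 above the threshold, with adjusted p from 0.0667 without WT mouse 2 to 0.114 without Gαq mouse 3. Nfatc2, an NFAT factor, was at 25.2 ± 3.05 CPM in WT and 33 ± 3.37 CPM in Gαq mice (log2 fold change 0.39, adjusted p = 0.0326). It was not called without Gαq mouse 2 (0.0775), Gαq mouse 3 (0.115), WT mouse 2 (0.0724) or WT mouse 4 (0.113), values being adjusted p. The list itself then held 0 or 1 called genes in 6 of these fits, and 2, 1 of them lower, without WT mouse 1. The catalytic subunits Ppp3ca and Ppp3cb had log2 fold changes of -0.04 and -0.16 and were not called.

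In the fetal and stress programme, genes that the heart uses before birth or turns on under load, 9 of 19 tested genes were called (47.4%, against 9.66% of all genes) and all 9 were higher. The list median was 1.28, against -0.01 over all genes and 0.64 over the genes called higher. Without WT mouse 1, 8 were called, again all higher, with a median of 1.36. A lower call joined the list with DESeq2 (9 higher, 1 lower) and without Gαq mouse 2 or WT mouse 2, 3 or 4 (1 lower each), and 2 did with no filter on low counts. Within a single cage 3 (cage 554815) and 5 (cage 559480) were called.

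Nppa (ENSMUSG00000041616, chromosome 4, 148000722 to 148002079, plus strand), which encodes atrial natriuretic peptide, was at 98.6, 399.6, 360.1 and 335 CPM in the WT mice and 6064, 4684, 6072 and 6957 CPM in the Gαq mice. The lowest Gαq mouse, mouse 2, was far above the highest WT mouse, also mouse 2. The rise was 19.9-fold (log2 fold change 4.32, SE 0.45, adjusted p = 4.68e-06), and without WT mouse 1 the log2 fold change was 4.03. Its neighbour Nppb (ENSMUSG00000029019, chromosome 4, 147985788 to 147987205), which encodes brain natriuretic peptide, was at 18.8, 101, 221 and 159 CPM in the WT mice and 517, 461, 587 and 675 CPM in the Gαq mice. The WT values spread widely, from mouse 1 at the bottom to mouse 3, but stayed below the Gαq values (4.47-fold, log2 fold change 2.16, SE 0.49, adjusted p = 0.0078). Gm13054, a transcript annotated antisense to Nppa, had a mean of 14.0 counts in WT and 199 counts in Gαq mice. The methods name pairs on the "same strand", which can refer to the strand of the gene or to the reads of a pair, so reads of Gm13054 and Nppa cannot be told apart. Atrial markers summed to 46.2 ± 22 CPM in WT and 128 ± 50.4 CPM in Gαq mice, and their part in the rise of Nppa was not tested.

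Acta1 (ENSMUSG00000031972, chromosome 8, 123891769 to 123894751, minus strand), the skeletal α-actin of the fetal ventricle, was at 130.4, 513, 781 and 562 CPM in the WT mice and 1213, 1888, 1969.8 and 1589.8 CPM in the Gαq mice. All Gαq mice were above all WT mice (3.35-fold, log2 fold change 1.75, SE 0.34, adjusted p = 0.00209). Actc1, the cardiac α-actin, was not called (log2 fold change 0.05, adjusted p = 0.892), and it made up 95.4% of the summed RPKM of both actins in WT and 85.8% in Gαq mice. Ankrd1 (ENSMUSG00000024803, chromosome 19, 36111961 to 36120099, minus strand), a titin-binding protein that responds to stretch, was at 279.6, 1193, 1237 and 1230.1 CPM in the WT mice and 3839, 3737, 4276 and 4777 CPM in the Gαq mice. WT mouse 1 was far below the other WT mice, which lay close together. With all mice the rise was 4.22-fold (log2 fold change 2.08, SE 0.31, adjusted p = 0.000206), and without WT mouse 1 the log2 fold change was 1.77 (adjusted p = 1.69e-06). WT mouse 1 was also lowest for Nppa, Nppb and Acta1, and without it the log2 fold changes of Nppb and Acta1 were 1.81 and 1.43. The other called genes of the list were Ccn2, a matrix growth factor (1.28), Gdf15, a secreted stress signal (2.59), Timp1, an inhibitor of matrix proteases (1.47), Xirp2, an actin-binding protein of the intercalated disc (1.05), and Tnni1, the fetal troponin I (1.49), in log2 fold change. Tnni1 was not called without WT mouse 1, 3 or 4 or Gαq mouse 1 or 3 (adjusted p 0.0637 to 0.107).

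Myh7 (ENSMUSG00000053093, chromosome 14, 54970684 to 54994626, minus strand), the fetal myosin heavy chain, was not among the called genes at 4 weeks. It was at 1281, 1780.1, 1791 and 1616 CPM in the WT mice and 2055, 1622, 1913 and 1431 CPM in the Gαq mice. The genotypes overlapped, and the log2 fold change was 0.12 with an SE of 0.18 (adjusted p = 0.777). Of the summed RPKM of Myh7 and Myh6, Myh7 made up 3.01% in WT mice and 3.63% where Gαq was raised. At 20 weeks the log2 fold change was 1.69 (adjusted p = 1.86e-06), and the effect differed between ages (adjusted p = 0.0107 for the interaction). Part of the sequence is shared with other genes, 15.6% of 50-base stretches of Myh7 and 20.2% of Myh6, and Mhrt, an antisense gene, overlaps Myh7, so that reads of the pair cannot be told apart. Among the atrial light chains of the list, Myl7 and Myl4 had log2 fold changes of 1.86 and 2.20 with SE of 1.17 and 0.97 and were not called. WT mice 1 and 2 were far above WT mice 3 and 4 for both, and without WT mouse 2 the log2 fold changes were 2.55 and 2.85, again not called.

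The promoters of Nppa, Nppb, Acta1 and Ankrd1 are given because these genes rose together. They are the 250 bases before the RefSeq start in build GRCm38.p6, at chr4:148000472-148000721 (plus strand), chr4:147985650-147985899 (plus strand), chr8:123894776-123895025 (minus strand) and chr19:36119845-36120094 (minus strand), from the RefSeq promoter table and printed 5′ to 3′ on the strand of the gene. Capitals mark 3 motifs searched on both strands: the MCAT box CATTCC, to which TEAD factors bind, the oestrogen-related receptor element TNAAGGTCA, and the CArG box of serum response factor. A match is a description of the letters and not a measured site. Nppb held 1 MCAT box, Acta1 1 MCAT box and 1 CArG box, and Ankrd1 2 MCAT boxes, while no such letters were in the window of Nppa. Among 14554 promoters of 11393 tested genes, 11.1% held an MCAT box, 0.673% the oestrogen-related receptor element and 1.20% a CArG box. Among promoters of genes called higher these shares were 13.8%, 0.780% and 1.69%, and among those of genes called lower 10.8%, 0.409% and 1.5%.
Nppa: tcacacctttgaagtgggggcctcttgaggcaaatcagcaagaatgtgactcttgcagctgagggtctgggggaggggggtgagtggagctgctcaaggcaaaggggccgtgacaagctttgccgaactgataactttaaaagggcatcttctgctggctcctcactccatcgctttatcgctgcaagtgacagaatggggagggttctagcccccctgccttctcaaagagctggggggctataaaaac
Nppb: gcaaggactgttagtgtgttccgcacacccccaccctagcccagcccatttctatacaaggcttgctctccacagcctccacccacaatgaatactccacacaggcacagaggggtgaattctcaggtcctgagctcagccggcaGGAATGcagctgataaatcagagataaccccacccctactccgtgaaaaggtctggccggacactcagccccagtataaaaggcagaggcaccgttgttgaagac
Acta1: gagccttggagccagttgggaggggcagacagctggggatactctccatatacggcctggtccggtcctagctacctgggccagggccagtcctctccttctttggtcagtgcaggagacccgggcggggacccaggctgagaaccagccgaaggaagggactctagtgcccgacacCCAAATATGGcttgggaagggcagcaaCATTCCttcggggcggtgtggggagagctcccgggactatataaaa
Ankrd1: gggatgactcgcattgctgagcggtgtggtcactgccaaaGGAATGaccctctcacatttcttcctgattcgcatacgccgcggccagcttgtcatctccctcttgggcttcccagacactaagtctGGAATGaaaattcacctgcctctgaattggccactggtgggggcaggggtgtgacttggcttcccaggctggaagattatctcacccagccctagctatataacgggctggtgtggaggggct

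**Figure D2:**
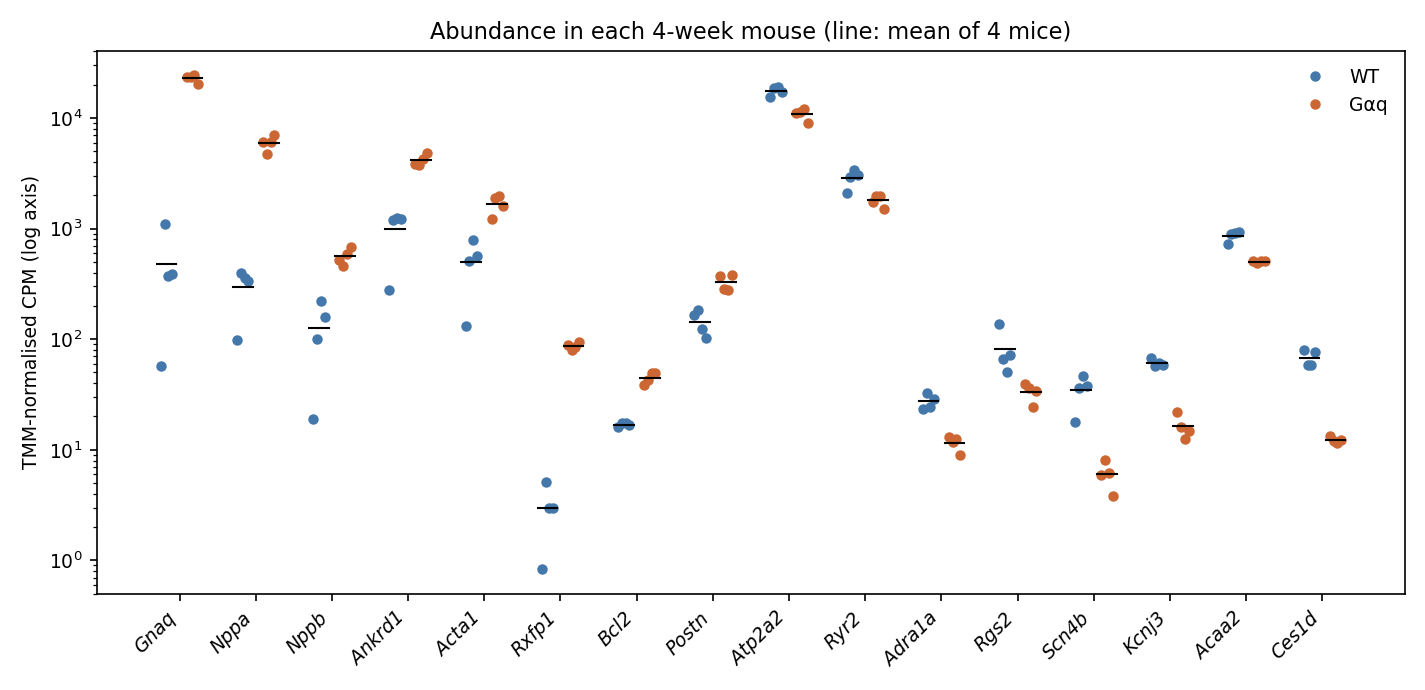
TMM-normalised CPM of 16 genes in each of the 8 mice at 4 weeks on a log axis, WT in blue and Gαq in orange, with a black line at the mean of 4 mice. For Nppa, Ankrd1 and Acta1 the lowest WT point is WT mouse 1, and for Acaa2 and Ces1d the Gαq points lie close together below the WT points.

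In the adult sarcomere 3 of 21 tested genes were called (14.3%, against 9.66% of all genes), 1 higher and 2 lower, with a median of -0.06. The called rise was that of Myom2, an M-band protein that links thick filaments, at 1014, 1063, 1000.4 and 1074 CPM in the WT mice and 2147, 2064, 2268 and 1862 CPM in the Gαq mice. The genotypes were far apart with little spread within WT (2.01-fold, log2 fold change 1.01, SE 0.17, adjusted p = 0.000635). Tnni3, the adult troponin I, was at 3707 ± 294 CPM in WT and 3036 ± 159 CPM in Gαq mice (log2 fold change -0.29, adjusted p = 0.0335), and Cmya5, an anchoring protein, had a log2 fold change of -0.45 (adjusted p = 0.0387). Tnni3 was not called without WT mouse 3 (0.0502), WT mouse 4 (0.109) or Gαq mouse 1 (0.0655), 2 (0.0827) or 3 (0.102), values being adjusted p. Cmya5 was not called without WT mouse 2, 3 or 4 or Gαq mouse 1, 2, 3 or 4 (adjusted p 0.0534 to 0.123). With any 1 of the mice on which the call of Tnni3 rested left out, 1 gene of the list was called, which was higher, and without WT mouse 1 there were 5, 1 higher and 4 lower. Tnni3 was also not called with the cage as a block (adjusted p = 0.0599), with no filter on low counts (adjusted p = 0.0821) or with the 4-week mice alone (adjusted p = 0.111). Myh6 was at 40629 ± 5677 CPM in WT and 36537 ± 5075 CPM in Gαq mice and was not called (log2 fold change -0.15, adjusted p = 0.647).

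Of the 20 genes of calcium handling, 2 were called, both lower, a share of 10% against 9.66% of all genes. Atp2a2 (ENSMUSG00000029467, chromosome 5, 122453513 to 122502225), the pump that returns calcium to the sarcoplasmic reticulum, was at 15623, 18488, 19202 and 17059.9 CPM in the WT mice and 11136, 11436, 12003 and 8976 CPM in the Gαq mice. All Gαq mice were below all WT mice, and the level was 1.62-fold lower (log2 fold change -0.69, SE 0.13, adjusted p = 0.00205). The difference in means of -6706 CPM was the largest fall in CPM among the called genes. Ryr2, the release channel of the same store, was at 2105, 2917, 3374 and 3069 CPM in the WT mice and 1727, 1988, 1991 and 1493 CPM in the Gαq mice. WT mouse 1 was nearest to the Gαq mice without overlapping them (log2 fold change -0.67, adjusted p = 0.00924). Pln, the inhibitor of the pump, was not called (log2 fold change -0.10, adjusted p = 0.659). As a share of the summed RPKM of Atp2a2 and Pln, Atp2a2 went from 60.4% in WT to 50.1% in Gαq mice. Slc8a1, the sodium-calcium exchanger, and Cacnb2, a subunit of the L-type channel, had log2 fold changes of -0.46 and -0.31 and were not called (adjusted p = 0.0632 and 0.0791), while without WT mouse 1 both were called, at -0.60 (adjusted p = 0.0039) and -0.42 (adjusted p = 0.00346). Sln, an atrial regulator of the pump, had 3.07 with an SE of 1.10 and was not called (adjusted p = 0.0922), nor without WT mouse 1 (3.83, adjusted p = 0.0714). Without WT mouse 1, 5 genes of the list were called, all lower. In bulk tissue, fewer cells of a type and less RNA per cell cannot be told apart, which holds for the myocyte genes and for all other lists.

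Ion channels and gap junction genes set the electrical behaviour of the ventricle. In this list 9 of 23 genes were called (39.1%, against 9.66% of all genes), 2 higher and 7 lower, with a median of -0.11. Without WT mouse 1 there were 8, 2 higher and 6 lower. Scn4b, an accessory channel subunit, was at 17.8, 36.3, 46.4 and 37.4 CPM in the WT mice and 5.89, 8.11, 6.21 and 3.84 CPM in the Gαq mice. WT mouse 1 was the lowest WT mouse and still above every Gαq mouse (5.79-fold lower, log2 fold change -2.54, SE 0.32, adjusted p = 4.49e-05). Kcnv2, a modulatory potassium channel subunit, was at 20.5, 18.8, 18.4 and 20.8 CPM in the WT mice and 3.78, 6.4, 4.2 and 4.41 CPM in the Gαq mice. The genotypes were clearly apart (4.21-fold lower, log2 fold change -2.07, SE 0.12, adjusted p = 5.93e-09). Kcnj3, a G protein-gated channel that acetylcholine opens, was at 67.1, 56.6, 61.5 and 58.7 CPM in the WT mice and 21.9, 16.1, 12.5 and 14.8 CPM in the Gαq mice, with no overlap (3.72-fold lower, log2 fold change -1.90, SE 0.17, adjusted p = 9.03e-07).

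Its partner in the channel, Kcnj5, was not called (log2 fold change 0.04), nor was the main gap junction protein Gja1 (-0.11). Kcnj2, an inward rectifier that holds the resting potential, and Kcnq1, the slow delayed rectifier, were lower, with log2 fold changes of -0.59 and -0.51, and Kcnq1 was not called without WT mouse 3 or Gαq mouse 2 or 4 (adjusted p 0.0564 to 0.0704). Hcn2, a cation channel opened by hyperpolarisation, was higher (log2 fold change 0.55, adjusted p = 0.0137). Hcn2 was not called without Gαq mouse 2 (adjusted p = 0.0512). Gjc1, the connexin of the developing and conducting myocardium, rose from 32.1 to 51.4 CPM (log2 fold change 0.68, adjusted p = 1.58e-05).

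In β-adrenergic and muscarinic signalling, 1 of 20 genes was called (5%, against 9.66% of all genes), and the median was 0.02. This was Gnao1, an inhibitory G protein subunit, at 45.7, 44.3, 46.7 and 44.6 CPM in the WT mice and 75.2, 74.7, 73.8 and 62.6 CPM in the Gαq mice. All Gαq mice were above all WT mice (1.58-fold, log2 fold change 0.66, SE 0.09, adjusted p = 0.000115). Adrb1, the main β receptor of the heart, was not called (log2 fold change -0.35, adjusted p = 0.0902). Prkar1a, a regulatory subunit of protein kinase A, was at 649.9 ± 81.5 CPM in WT and 813 ± 82.2 CPM in Gαq mice and just missed the threshold (log2 fold change 0.32, adjusted p = 0.053). It passed without Gαq mouse 2 (adjusted p = 0.0354) and without WT mouse 2 (adjusted p = 0.0495), which brought the list to 2 calls in each case, both higher, and without Gαq mouse 3, where Prkar1a was not called, there were 1 higher and 1 lower. With all mice Prkar1a was called by the DESeq2 Wald test (adjusted p = 0.0162), with total counts (adjusted p = 0.0143) and with a filter of at least 1 CPM in 4 mice (adjusted p = 0.0462). When WT mouse 1 was left out, there was 1 call.

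The enzymes and transporters of fatty acid use were lower together. Of 34 tested genes 28 were called and all 28 were lower (82.4%, against 4.73% of all genes called lower), and all 34 log2 fold changes were negative. The median was -0.49 against -0.01 over all genes, and the values ran from -1.42 to -0.09. With WT mouse 1 omitted, 29 were called lower with a median of -0.56, and within a single cage 24 (cage 554815) and 9 (cage 559480) were called. Omission of any other mouse lowered the count, to between 21 (WT mouse 3 or Gαq mouse 1) and 25 (WT mouse 2 or Gαq mouse 3), all lower. The 4-week mice alone gave 23. Uptake and release of fatty acids from lipoproteins were represented by Lpl (-0.41), Cd36 (-0.33), Slc27a1 (-0.54) and Fabp3 (-0.48), activation by Acsl1 (-0.46) and entry into mitochondria by Slc25a20 (-0.51) and Cpt2 (-0.64), in log2 fold change. The carnitine palmitoyltransferases of the outer membrane, Cpt1a (-0.11) and Cpt1b (-0.23), were not called. Of the acyl-CoA dehydrogenases Acadvl (-0.74) was called and Acadl (-0.23) was not, although Acadl was called lower without WT mouse 1 (-0.32, adjusted p = 0.0319). Some calls of the list rested on single mice. Acadm was not called with any 1 mouse other than WT mouse 1 left out (adjusted p 0.06 to 0.121). Lpl was not called without WT mouse 2, 3 or 4 or Gαq mouse 1, 2 or 4 (adjusted p 0.0669 to 0.0967), Cd36 was not called without WT mouse 3 or 4 or Gαq mouse 1 or 3 (adjusted p 0.0536 to 0.0794), and Acsl1 was not called without WT mouse 3 or 4 or Gαq mouse 1, 2 or 4 (adjusted p 0.0633 to 0.116). The trifunctional protein genes Hadha (-0.49) and Hadhb (-0.49) and the electron transfer genes Etfa (-0.44) and Etfb (-0.51) were called lower as well.

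Acaa2 (ENSMUSG00000036880), the thiolase that closes each turn of β-oxidation, was at 732, 886, 904 and 937 CPM in the WT mice and 507, 484, 509.6 and 514 CPM in the Gαq mice. The Gαq mice lay within a narrow band below every WT mouse (1.72-fold lower, log2 fold change -0.78, SE 0.08, adjusted p = 6.38e-06). Decr1 (ENSMUSG00000028223, chromosome 4, 15917240 to 15945507), a reductase needed for unsaturated fatty acids, was at 296, 342, 347 and 378 CPM in the WT mice and 194, 192, 197 and 207 CPM in the Gαq mice. Again no Gαq mouse reached the lowest WT mouse, which was mouse 1 (1.73-fold lower, log2 fold change -0.79, SE 0.08, adjusted p = 7.04e-06). When WT mouse 1 was left out, the log2 fold changes were -0.85 for Acaa2 and -0.85 for Decr1. The largest falls of the list were in Pdk4 (-1.42), a kinase that blocks pyruvate oxidation, Ucp3 (-1.25), an uncoupling protein, and Acot1 (-1.06), a thioesterase, in log2 fold change. Pdk4 was at 413, 428, 278 and 212 CPM in the WT mice and 175, 131, 115 and 74.9 CPM in the Gαq mice. WT mice 1 and 2 were the highest, and the Gαq mice were all below the WT mice. Myocyte marker sums were lower on average in Gαq mice (61062 ± 4942 CPM) than in WT mice (68282 ± 7716 CPM). The genotypes overlapped through WT mouse 1 alone (56970.4 CPM), and every other WT mouse was above every Gαq mouse. The part of these marker sums in the fatty acid result was not tested.

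Of 21 regulators of energy metabolism 3 were called (14.3%), all lower, against 9.66% of all genes called and 4.73% called lower, with a median of -0.10. Rxrg, a retinoid X receptor that pairs with PPAR factors, was at 56.2, 63, 72.6 and 68.2 CPM in the WT mice and 46.3, 47.4, 47.3 and 47.6 CPM in the Gαq mice. The Gαq mice were nearly alike and below all WT mice (1.38-fold lower, log2 fold change -0.46, SE 0.08, adjusted p = 0.00101). Pparg was at 14.7 ± 0.775 CPM in WT and 10.7 ± 1.53 CPM in Gαq mice (log2 fold change -0.46, adjusted p = 0.0205). It was not called without WT mouse 4 (0.0592) or Gαq mouse 1 (0.0734), 3 (0.0662) or 4 (0.0576), values being adjusted p, and without WT mouse 4 or Gαq mouse 1 or 4 a single gene of the list was called. Tfam, a factor of the mitochondrial genome, had a log2 fold change of -0.21 (adjusted p = 0.0441) and was not called without WT mouse 2, 3 or 4 or Gαq mouse 1, 2 or 4 (adjusted p 0.0604 to 0.144). Ppara, the main PPAR of the heart, was not called (log2 fold change -0.16, adjusted p = 0.578), nor was Esrra (log2 fold change -0.25, adjusted p = 0.0585). Ppargc1a, the coactivator of mitochondrial biogenesis, was at 104, 139, 116 and 115 CPM in the WT mice and 126, 129, 122 and 108 CPM in the Gαq mice. The genotypes overlapped fully (log2 fold change 0.03, SE 0.11, adjusted p = 0.917), and at 20 weeks its log2 fold change was -0.72 (adjusted p = 9.6e-05), with an adjusted p of 0.0547 for the difference between ages. In the fit without WT mouse 1, the list again had 3 genes called lower.

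In glucose use and glycolysis 7 of 30 genes were called (23.3%, against 9.66% of all genes), 1 higher and 6 lower, with a median of -0.10. Pfkfb1, which sets the level of an activator of glycolysis, was at 19.8, 8.25, 11.2 and 16.2 CPM in the WT mice and 3.24, 3.42, 2.27 and 3.57 CPM in the Gαq mice. All Gαq mice were below all WT mice (4.41-fold lower, log2 fold change -2.14, SE 0.23, adjusted p = 8.51e-06). Slc2a4, the insulin-responsive glucose transporter, was at 352 ± 25 CPM in WT and 256 ± 18.1 CPM in Gαq mice (log2 fold change -0.46, adjusted p = 0.00381). Others called lower were Mpc2, of the pyruvate carrier (-0.30), Eno3, a muscle enolase (-0.34), and Pdhb, of pyruvate dehydrogenase (-0.30). Pfkp, a phosphofructokinase, was higher (0.35), all in log2 fold change, and Pfkp was not called without WT mouse 1, 2 or 4 or Gαq mouse 1, 2 or 3 (adjusted p 0.0574 to 0.13). The transporter Slc2a1 (0.08) and the hexokinases Hk1 (0.29) and Hk2 (-0.13) were not called. After omission of WT mouse 1, 7 genes were called and all were lower.

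Citric acid cycle genes were lower together as well. Of 18 genes 11 were called, all lower (61.1%, against 4.73% of all genes called lower), all 18 log2 fold changes were negative, and the median was -0.32. With WT mouse 1 omitted, 14 were called lower with a median of -0.37, and 9 were called within cage 554815. Omission of any other mouse gave between 8 (WT mouse 3) and 11 (Gαq mouse 2) calls, all lower. Within cage 559480 alone 0 were called by edgeR, with 7 at an unadjusted p under 0.05 and a median of -0.21. Suclg1, of succinyl-CoA ligase, was at 372, 418, 421 and 448 CPM in the WT mice and 314, 320.1, 313 and 328 CPM in the Gαq mice. No Gαq mouse reached the WT range (1.3-fold lower, log2 fold change -0.38, SE 0.07, adjusted p = 0.00117). Sdhc, of succinate dehydrogenase, fell from 579 ± 31.4 to 443 ± 31 CPM (log2 fold change -0.39, adjusted p = 0.00122), and Sdha also fell (-0.37). Idh3a (-0.36) and Idh3b (-0.37), of NAD-dependent isocitrate dehydrogenase, were called, as was Cs, citrate synthase (-0.39), in log2 fold change. Cs was not called without WT mouse 3 or Gαq mouse 4 (adjusted p 0.0538 to 0.0573). Ogdh (-0.22) and Mdh2 (-0.18) were not called.

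In ketone and branched-chain amino acid use 6 of 18 genes were called (33.3%, against 9.66% of all genes), all lower, with a median of -0.21. When WT mouse 1 was left out, there were 9, and without WT mouse 4 there were 2. The called genes belong to the breakdown of branched-chain amino acids. Bckdhb, of the branched-chain ketoacid dehydrogenase, was at 63.7, 68.9, 69.4 and 72.6 CPM in the WT mice and 51.1, 45.7, 47.6 and 44.2 CPM in the Gαq mice. The genotypes did not overlap (1.46-fold lower, log2 fold change -0.54, SE 0.07, adjusted p = 3.05e-05). Hibadh, of valine breakdown, fell from 261 to 206 CPM (log2 fold change -0.34, adjusted p = 0.00683). The ketone genes Oxct1 (-0.08) and Bdh1 (-0.04) were not called. The list of creatine kinase and nucleotide exchange had a median of -0.15, and without WT mouse 1, 4 of 12 genes were called. With all mice 3 of 12 were called, all lower (25%, against 9.66% of all genes called and 4.73% called lower). These were Ckmt2, the creatine kinase of mitochondria, at 2493 ± 213 CPM in WT and 1898 ± 36.7 CPM in Gαq mice (log2 fold change -0.39, adjusted p = 0.00751), Ckm, the kinase of the sarcomere (log2 fold change -0.36, adjusted p = 0.0279), and Ak4, an adenylate kinase of mitochondria (log2 fold change -0.33, adjusted p = 0.0042). Ckm was not called without WT mouse 2, 3 or 4 or Gαq mouse 1, 3 or 4 (adjusted p 0.055 to 0.0975). The carrier Slc25a4 was not called (log2 fold change -0.16, adjusted p = 0.345).

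In the extracellular matrix list 37 genes had positive and 4 had negative log2 fold changes. Of 41 tested genes 25 were called and all 25 were higher (61.0%, against 4.93% of all genes called higher), and the median was 0.54 against -0.01 over all genes. In the fit without WT mouse 1, 28 were called higher with a median of 0.64, and within a single cage 27 (cage 554815) and 5 (cage 559480, which holds WT mouse 1) were called. Omission of any other mouse lowered the count, to between 19 (WT mouse 4) and 24 (WT mouse 2), all higher. Col1a1 (ENSMUSG00000001506, chromosome 11, 94936224 to 94953042), the main chain of collagen I, was at 659, 677, 485 and 408 CPM in the WT mice and 938, 1035, 1020.1 and 1033 CPM in the Gαq mice. All Gαq mice were above all WT mice (1.81-fold, log2 fold change 0.85, SE 0.13, adjusted p = 0.000241). Postn (ENSMUSG00000027750, chromosome 3, 54361109 to 54391037), a matricellular protein of activated fibroblasts, was at 166, 182, 124 and 103 CPM in the WT mice and 371, 282, 277 and 383 CPM in the Gαq mice, again without overlap (2.28-fold, log2 fold change 1.19, SE 0.16, adjusted p = 9.46e-05). Cilp, a matrix protein that binds TGF-β, was at 4.73, 20.6, 13.1 and 6.95 CPM in the WT mice and 53.4, 48.7, 62.5 and 50.4 CPM in the Gαq mice. WT mouse 2 was highest among WT, below the lowest Gαq mouse (4.72-fold, log2 fold change 2.24, SE 0.31, adjusted p = 8.71e-05).

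Col8a1, a short-chain collagen, rose from 60.5 ± 19 to 152 ± 7.37 CPM (2.5-fold, log2 fold change 1.32, adjusted p = 1.51e-05). The largest log2 fold change of the list was 2.28 for Thbs4, a thrombospondin, at 9.27, 39.3, 7.86 and 6.91 CPM in the WT mice and 85.8, 79.1, 77 and 65.7 CPM in the Gαq mice. WT mouse 2 was also the highest WT mouse for Thbs4, and no WT mouse reached the Gαq range (adjusted p = 0.00261). Without WT mouse 2 the log2 fold change of Thbs4 was 3.26 (adjusted p = 1.31e-05). Of the growth factors, Tgfb2 (0.81) and Tgfb3 (0.56) were called higher and Tgfb1 (-0.06) was not, in log2 fold change. Among the collagens, Col3a1 (log2 fold change 0.24, adjusted p = 0.245) and the basement membrane chains Col4a1 (0.12) and Col4a2 (0.16) were not called. Nor were Fn1, fibronectin (log2 fold change 0.48, adjusted p = 0.0516), and Eln, elastin (-0.12). With WT mouse 1 omitted, Col3a1 (0.38, adjusted p = 0.0205) and Fn1 (0.66, adjusted p = 0.0034) were called higher. The 8 fibroblast markers summed to 6865, 4861, 4051 and 4457 CPM in the WT mice and 5361, 5770.3, 5393 and 6267 CPM in the Gαq mice, with Gsn as the most abundant per length. Their sums overlapped through WT mouse 1 alone, and every other WT mouse was below every Gαq mouse. Col1a1 and Col1a2 were the 2 called, and Pdgfra (0.16), Tcf21 (0.15), Dcn (0.25), Gsn (-0.36), Dpt (-0.23) and Lum (0.55, adjusted p = 0.06) were not called. After omission of WT mouse 1 Lum was called (0.72, adjusted p = 0.0118), and Tcf21 and Dcn had 0.39 and 0.39 without a call, in log2 fold change. The part of cell numbers in the matrix result was not tested. The 8 endothelial markers summed to 2097, 1742, 1793 and 1792 CPM in the WT mice and to 1556, 1501, 1594 and 1569.7 CPM in the Gαq mice, with every Gαq mouse below every WT mouse, and Cdh5 (log2 fold change -0.26, adjusted p = 0.039) and Tek (log2 fold change -0.34, adjusted p = 0.0132) were called lower. Cdh5 was not called without WT mouse 1, 2 or 3 or Gαq mouse 1, 2, 3 or 4 (adjusted p 0.0514 to 0.107), and Tek was not called without Gαq mouse 2 (adjusted p = 0.0575). Macrophage markers summed to 446 ± 92 CPM in WT and 402 ± 20.3 CPM in Gαq mice, and Csf1r (-0.13) and Mrc1 (0.04) among them were not called.

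Among cell death genes 2 of 27 were called, both higher (7.41%, against 9.66% of all genes), with a median of -0.04. Bcl2 (ENSMUSG00000057329, chromosome 1, 106538178 to 106714274), which protects mitochondria against permeabilisation, was at 15.9, 17.3, 17.5 and 16.8 CPM in the WT mice and 38.4, 42.5, 49.6 and 49.4 CPM in the Gαq mice. The WT mice were nearly alike and far below the Gαq mice (2.66-fold, log2 fold change 1.41, SE 0.12, adjusted p = 4.52e-07). Tnfrsf12a, the receptor of the cytokine TWEAK, was at 32.8 ± 12.2 CPM in WT and 59.6 ± 6.15 CPM in Gαq mice (log2 fold change 0.86, adjusted p = 0.028). It was not called without WT mouse 1 (0.0532), WT mouse 4 (0.0651) or Gαq mouse 2 (0.0505), 3 (0.0756) or 4 (0.0614), values being adjusted p. With WT mouse 4 or Gαq mouse 2, 3 or 4 left out the list had 1 call, and with WT mouse 1 left out it had 4, 1 higher and 3 lower. Bnip3l, also called Nix, a mitochondrial death protein, was at 48, 45.4, 45.4 and 50.6 CPM in the WT mice and 48.1, 45.3, 48.3 and 51.4 CPM in the Gαq mice. These values overlapped and the log2 fold change was 0.03 (SE 0.07, adjusted p = 0.871). Of its 50-base stretches, 20.8% are shared with another gene. The pore-forming Bax (0.09) and Bak1 (0.15) were not called.

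Antioxidant and oxidant enzymes had 6 of 29 genes called (20.7%, against 9.66% of all genes), all lower, with a median of -0.08. They included the peroxiredoxin Prdx3 (-0.34), the quinone reductase Nqo1 (-0.73) and the glutathione transferase Gstm1 (-0.41), in log2 fold change. Nqo1 was not called without WT mouse 3 or 4 or Gαq mouse 1 or 2 (adjusted p 0.0576 to 0.0967). Gstm1 was at 102, 84.6, 104 and 108 CPM in the WT mice and 69.1, 77.6, 74.9 and 79 CPM in the Gαq mice, without overlap (adjusted p = 0.000999), though 18.9% of its 50-base stretches occur in another gene. Prdx3, the peroxiredoxin of mitochondria, was at 333 ± 31.4 CPM in WT and 262 ± 25.5 CPM in Gαq mice (adjusted p = 0.0108). Leaving out WT mouse 4 or Gαq mouse 1 gave 2 calls, and leaving out WT mouse 3 or Gαq mouse 2 gave 3, while without WT mouse 1 there were 6, 1 higher and 5 lower. In the fit of the 4-week mice alone 2 genes of the list were called, both lower. Nox4, an oxidase that makes hydrogen peroxide, was not called (log2 fold change 0.60, adjusted p = 0.0914).

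In the integrated stress and unfolded protein response 5 of 33 genes were called (15.2%, against 9.66% of all genes), 4 higher and 1 lower, with a median of 0.06. Pycr1, of proline synthesis in mitochondria, was at 1.53, 1.76, 1.61 and 1.63 CPM in the WT mice and 2.25, 3.47, 2.84 and 3.61 CPM in the Gαq mice. The genotypes were apart at these low levels (1.86-fold, log2 fold change 0.89, SE 0.17, adjusted p = 0.00183). Slc7a5, an amino acid transporter, rose from 7.49 ± 1.56 to 12.3 ± 0.725 CPM (log2 fold change 0.71, adjusted p = 0.00204). Gdf15 was at 0.417, 1.38, 0.968 and 1.19 CPM in the WT mice and 6.73, 6.64, 6.69 and 4.3 CPM in the Gαq mice (adjusted p = 0.00369), Nupr1 rose (log2 fold change 0.59, adjusted p = 0.0374), and Shmt2, a folate enzyme of mitochondria, fell (log2 fold change -0.34, adjusted p = 0.0263). Nupr1 was not called without WT mouse 2, 3 or 4 or Gαq mouse 1, 2 or 4 (adjusted p 0.0703 to 0.126), and Shmt2 was not called without WT mouse 1, 2 or 3 or Gαq mouse 1 or 4 (adjusted p 0.0518 to 0.0901). Atf4 (0.01), Ddit3 (0.06) and the chaperone Hspa5 (0.10) were not called. Without Gαq mouse 1, Gαq mouse 4, WT mouse 2 or WT mouse 3 there were 3 calls, and without WT mouse 1 there were 4, all higher.

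Small heat shock proteins and protein turnover had 2 of 20 genes called (10%, against 9.66% of all genes), both higher, with a median of 0.13. After omission of WT mouse 1, there were again 2. Hspb3, a muscle heat shock protein, was at 6.9, 8.41, 9.84 and 9.29 CPM in the WT mice and 14.2, 14.7, 15.1 and 19 CPM in the Gαq mice. No Gαq mouse was within the WT range (1.82-fold, log2 fold change 0.87, SE 0.13, adjusted p = 0.000148). Hsp90aa1, the inducible HSP90, rose from 64.8 ± 10.5 to 104 ± 6.39 CPM (log2 fold change 0.68, adjusted p = 0.00157), with 47.5% of its 50-base stretches shared with other genes. The ubiquitin ligases of muscle atrophy, Fbxo32 (0.20) and Trim63 (-0.09), were not called. Of 32 cell cycle genes 1 was called (3.12%, against 9.66% of all genes), and the median was 0.01. This was Ccnd2 (ENSMUSG00000000184, chromosome 6, 127125162 to 127152193), a D-type cyclin, at 96.9, 151, 157 and 129 CPM in the WT mice and 250.1, 265, 268 and 253 CPM in the Gαq mice. Every Gαq mouse was above every WT mouse (1.94-fold, log2 fold change 0.96, SE 0.11, adjusted p = 2e-05). Markers of DNA synthesis and division such as Mki67 (0.16), Top2a (0.21) and Rrm2 (-0.40, adjusted p = 0.175) were not called.

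Among genes with at least 1 CPM in the higher group and no overlap, the largest rises after Gnaq were in Gm26984, Rxfp1, Syndig1 and Nppa. Rxfp1 (ENSMUSG00000034009, chromosome 3, 79641611 to 79737880, minus strand), the receptor of the hormone relaxin, was at 0.834, 5.11, 2.98 and 2.98 CPM in the WT mice and 87.9, 79.7, 85.7 and 94.3 CPM in the Gαq mice. It was low in every WT mouse and the rise was 28.9-fold (log2 fold change 4.85, SE 0.42, adjusted p = 6.67e-07). Gm26984 is an intronic transcript on the same strand within Rxfp1, so that reads from unspliced Rxfp1 cannot be told apart from it. Gm26984 had a mean of 1 count in WT and 36.5 counts in Gαq mice. Syndig1, a synaptic membrane protein, was at 0.0927, 0.335, 0.0806 and 0.119 CPM in the WT mice and 4.18, 4.98, 3.63 and 3.11 CPM in the Gαq mice. WT mouse 2 was the highest WT mouse and still far below the Gαq mice (log2 fold change 4.61, SE 0.43, adjusted p = 1.16e-06), and without this mouse the log2 fold change was 5.27.

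The largest falls were in Slc46a2, Retnla, Scn4b, Tmprss13 and Ces1d. Ces1d (ENSMUSG00000056973, chromosome 8, 93166068 to 93197838), a carboxylesterase that hydrolyses lipids, was at 79.2, 58.4, 58 and 77.1 CPM in the WT mice and 13.2, 12, 11.5 and 12.4 CPM in the Gαq mice. The Gαq mice lay close together at a low level (5.54-fold lower, log2 fold change -2.47, SE 0.14, adjusted p = 5.25e-09). Retnla, a secreted protein of alternatively activated macrophages and adipose tissue, was at 13.1, 5.02, 4.07 and 6.32 CPM in the WT mice and 0.764, 0.635, 0.481 and 1.27 CPM in the Gαq mice. Retnla was highest in WT mouse 1, and without it the log2 fold change went from -3.14 to -2.68 (adjusted p = 7.21e-05). Slc46a2, a member of the folate transporter family, was at 1.21, 1.34, 3.27 and 1.23 CPM in the WT mice and 0.0364, 0.146, 0.219 and 0.192 CPM in the Gαq mice (log2 fold change -3.56, adjusted p = 7.74e-05). Tmprss13, a membrane protease, fell from 2.73 ± 1.11 to 0.487 ± 0.222 CPM (log2 fold change -2.47, adjusted p = 0.000162). In absolute terms, chosen after their values were seen, the called genes with the largest gains after Gnaq were Nppa (5646 CPM), Ankrd1 (3172 CPM), Acta1 (1169 CPM) and Myom2 (1048 CPM), and Fhl2, a myocyte LIM protein, fell from 1755 ± 141 to 636 ± 35.3 CPM (log2 fold change -1.47, adjusted p = 1.07e-07).

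The 4-week calls were set beside their values at 20 weeks, where 3919 genes were called (23.3%) in other mice. Of the 827 genes called higher at 4 weeks 808 had a positive log2 fold change at 20 weeks, and of the 794 called lower 771 had a negative one. Of the 42 genes with opposite signs, 3 were called at 20 weeks. The share of all tested genes with the same sign at both ages is not given here, so these counts have no base beside them. The median log2 fold change of the genes called higher was 0.64 at 4 weeks and 0.69 at 20 weeks, and of those called lower -0.47 and -0.57. A test of the difference between ages called 35 genes (0.209%), of which 17 were also called at 4 weeks. In 14 of these the change was larger at 20 weeks, in 2, Lman1l and Abat, it was smaller, and in 1 the sign turned. The 35 calls became 16 without Gαq mouse 1, 14 without Gαq mouse 3, 19 without Gαq mouse 4 and 24 without WT mouse 1, and they were 193 with the DESeq2 Wald test, 234 with no filter on low counts and 20 with the cage as a block.

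Tdp1, a DNA repair enzyme, rose from 7.55 ± 0.876 to 10.6 ± 0.855 CPM at 4 weeks (log2 fold change 0.49, adjusted p = 0.0121) and had a log2 fold change of 1.84 at 20 weeks (interaction adjusted p = 0.00232). Gpr22, an orphan receptor of cardiac muscle, was at 36, 56.3, 44.9 and 52.5 CPM in the 4-week WT mice and 16.8, 10.7, 14.1 and 15.1 CPM in the 4-week Gαq mice. It was already 3.33-fold lower without overlap (log2 fold change -1.74, adjusted p = 4.13e-06), and its log2 fold change at 20 weeks was -3.77 (interaction adjusted p = 0.00233). Gm19461 lies antisense to Plekha6 and had a log2 fold change of -1.20 at 4 weeks and a larger fall at 20 weeks (interaction adjusted p = 0.00271). Plekha6 had a mean of 4298 counts in WT and 6570.0 counts in Gαq mice at 4 weeks, the opposite direction. Abat, which breaks down the transmitter GABA, was at 14.9, 15.4, 12.9 and 16 CPM in the 4-week WT mice and 52.3, 48.2, 53.9 and 49.8 CPM in the 4-week Gαq mice. The groups were far apart (log2 fold change 1.79, adjusted p = 5.93e-09), and the WT mean was 35.9 CPM at 20 weeks, where the log2 fold change was 0.98 (interaction adjusted p = 0.0263). Lman1l, a lectin of the secretory pathway, had log2 fold changes of 3.67 at 4 weeks and 1.47 at 20 weeks (interaction adjusted p = 0.0111). It lay at 0.119 to 0.323 CPM in the WT mice of 4 weeks. In the fatty acid list, Acot1 fell at 4 weeks (-1.06) and had -2.93 at 20 weeks (interaction adjusted p = 0.0199), and Angptl4, an inhibitor of lipoprotein lipase, had -0.56 at 4 weeks and 0.52 at 20 weeks in log2 fold change, with an interaction adjusted p of 0.0676 that missed the threshold. At 4 weeks Angptl4 was not called without WT mouse 1, 3 or 4 or Gαq mouse 1, 2, 3 or 4 (adjusted p 0.0601 to 0.119).

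**Figure D3:**
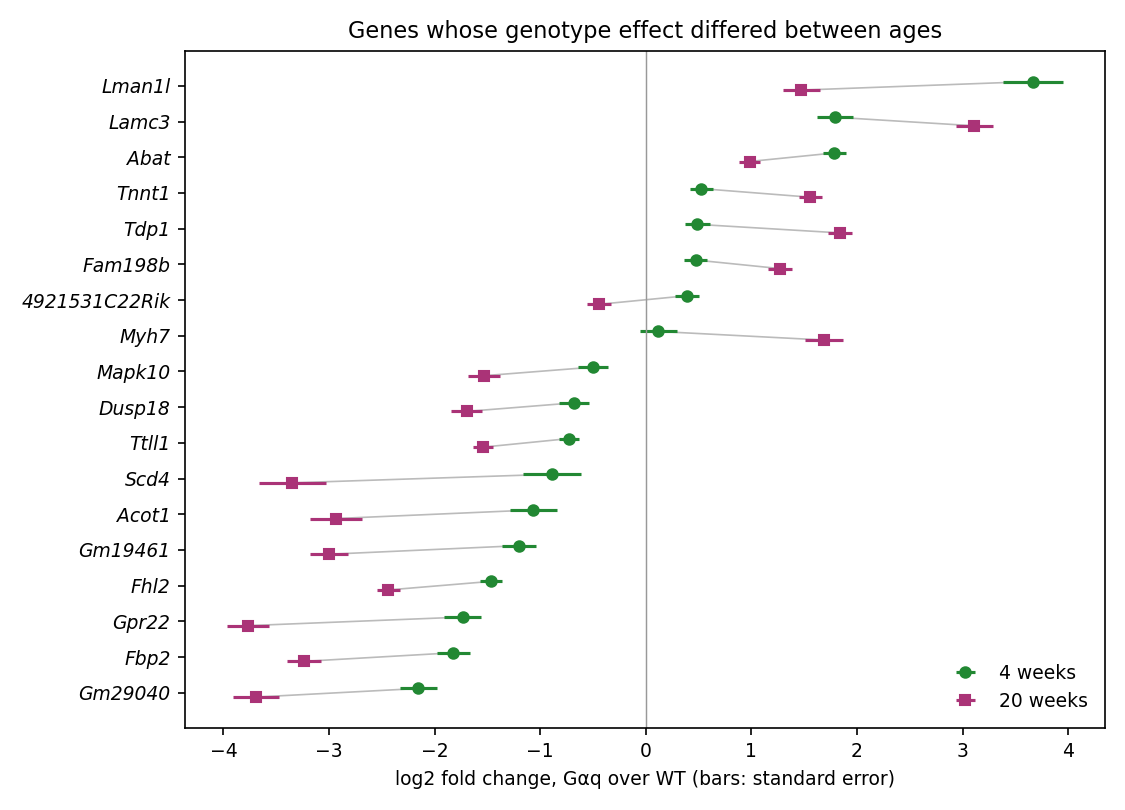
Log2 fold change of Gαq over WT at 4 weeks (green circles) and 20 weeks (purple squares) for the 17 genes called both at 4 weeks and for the difference between ages, and for Myh7. Bars are standard errors, and grey lines join the values of a gene. Fhl2, Gpr22 and Fbp2 lie below 0 at 4 weeks and further below at 20 weeks, while Myh7 lies near 0 at 4 weeks.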

How the data were processed

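Left ventricular RNA of 16 mice was sequenced from poly(A) libraries. Per the labels and the methods of the study, the authors aligned reads to mm10 with STAR 2.6.0c and deposited counts of uniquely aligned pairs per gene, made with featureCounts of Subread 1.6.2 for genes encoded in the nucleus. The words "same strand" can refer to the gene or to the reads of a pair, so antisense partners are given as not told apart. A deposited table of transformed values was not used here. Of 55450 genes, 55104 had a symbol and 55190 a position in GENCODE M21 (build GRCm38). Promoters came from RefSeq (GRCm38.p6).

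Groups were taken from the labels. Counts were analysed with edgeR 4.0.16 (R 4.3.3), with filterByExpr at a minimum count of 10, TMM scaling and the quasi-likelihood test, with a mean for each group of the 16 mice. P-values were adjusted with the Benjamini-Hochberg method over all 16786 tested genes, at 0.05. The genotype effect at 4 weeks and its difference from that at 20 weeks were tested. Tables and plots were made with Python 3.11.15. Each mouse is 1 replicate. On data simulated for the 4-week comparison, with 16385 genes tested, 175 of 200 changed genes were recovered, all in the right direction, and 10 others were called.

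The cage of a mouse was checked as a source of shared deviation. Mice of the same cage and different genotype had a mean correlation of deviations from their group means of 0.0564 across genes (8 pairs, -0.152 to 0.207), against -0.0568 for different cages (8 pairs, -0.176 to 0.128). Because deviations cancel within each genotype, both means nearly mirror each other by construction, and the mean for different cages is no independent baseline. Alternatives were the DESeq2 1.42.0 Wald test, other scaling, other filters, the cage as a block, the 4-week mice alone, each cage alone, and each 4-week mouse left out.

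The 61 genes followed through all alternatives are Gnaq, 16 classical genes of the hypertrophic heart, the 2 tested members of each list with the smallest p, the 5 largest rises and 5 largest falls among called genes with at least 1 CPM in the higher group and no overlap, and the 3 genes called at 4 weeks with the smallest interaction p. Other genes in the text are members of lists and markers, or were chosen after their values were seen, among them Fhl2, Abat and Lman1l. Members and lists were chosen with earlier results of these data known.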

Additional observations from a re-analysis of the deposited data

Results flagged for a closer look

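Among the 61 genes followed through all alternatives, 9 of 122 groups of 4 mice held 1 mouse far from the other 3, where chance gives about 1 in 20 groups, or 6.1. In WT mice these were Ankrd1 in WT mouse 1 (279.6 CPM, against 1193 to 1237 CPM), Tnni3 in WT mouse 4 (4148 CPM, against 3554 to 3569 CPM), Prdx3 in WT mouse 4 (379.8 CPM, against 312 to 321 CPM), Syndig1 in WT mouse 2 (0.335 CPM, against 0.0806 to 0.119 CPM) and Slc46a2 in WT mouse 3 (3.27 CPM, against 1.21 to 1.34 CPM). In Gαq mice they were Prkca in Gαq mouse 4 (52.5 CPM, against 65 to 66.7 CPM), Col1a1 in Gαq mouse 1 (938 CPM, against 1020.1 to 1035 CPM), Gnao1 in Gαq mouse 4 (62.6 CPM, against 73.8 to 75.2 CPM) and Pparg in Gαq mouse 2 (12.9 CPM, against 9.71 to 10.2 CPM). The ranges given are those of the other 3 mice of the same group.

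The genotype effect differed between ages in 4 of these 61 genes by the test of the difference itself, against 35 of 16786 tested genes (0.209%). Tdp1, Gpr22 and Gm19461 had joined the 61 for their small interaction p, so that choice fixed their calls and the count of 4 shows no excess. Given as the log2 fold change at 20 weeks minus that at 4 weeks, the difference was 1.57 for Myh7, 1.35 for Tdp1, -2.03 for Gpr22 and -1.80 for Gm19461.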

How the results depend on the processing

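Of the 1621 genes called at 4 weeks, 1568 were tested with a filter of at least 1 CPM in 4 mice and 1601 with the 4-week mice alone, all were tested under each other alternative, and wherever tested they had the same direction, though most of these fits share the mice that selected them. Among the 61 genes followed through all alternatives, some that were not called turned in sign. Ppargc1a went from 0.03 to -0.02 without WT mouse 1 and Bnip3l from 0.03 to -0.01 without Gαq mouse 4, in log2 fold change. The signs of Myh6 in cage 559480 (0.03) and of Myh7 (-0.03) and Ppargc1a (-0.01) in cage 554815 also turned, and none of these 4 genes was called with all mice. Of other genes that were not called and whose log2 fold change is given, Eln (0.15), Actc1 (-0.04), Kcnj5 (-0.03) and Dpt (0.01) turned without WT mouse 1. The count of called genes was 1921 with DESeq2, 1597 with the size factors of DESeq2 in edgeR, 1670 with total counts, 1697 with no filter (31272 genes tested), 1631 with a filter of at least 1 CPM in 4 mice, 1755 with the cage as a block, 1525 with the 4-week mice alone and 1168 to 1707 with 1 mouse left out. Within 1 cage, with 2 mice against 2, it was lower: 860 (457 higher, 403 lower) in cage 554815 and 452 (277 higher, 175 lower) in cage 559480, where fewer mice were compared. In cage 554815 and in cage 559480, in this order, the fetal list then had 3 and 5 calls, all higher, fatty acid use had 24 and 9, the extracellular matrix 27 and 5, and the citric acid cycle 9 and, in cage 559480, 0 by edgeR (7 at an unadjusted p under 0.05). Of the 61 genes, 50 kept their side of the threshold in cage 554815 and 40 in cage 559480. The count of genes whose effect differed between ages moved most, from 35 to 193 with DESeq2, 234 with no filter, 20 with the cage as a block and 14 to 37 with 1 mouse left out, and the cause was not tested. The labels give no replicate numbers, so the cage took the place of a replicate block. Of 14787 tested genes with at least 10 counts in each 4-week mouse 10.1% were called, and of the 1999 others 6.65%.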

Other observations

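The genes of this paragraph were chosen after their values were seen. Among 9 tested genes of MHC class II antigen presentation and Cd74, its invariant chain, 3 were called at 4 weeks (33.3%, against 9.66% of all tested genes), all lower, with a median log2 fold change of -0.90 against -0.01 over all tested genes. At 20 weeks 0 of these genes were called, and the median was 0.19. The difference between ages was not called for Cd74, H2-Ab1 or H2-Aa (interaction adjusted p = 0.0575, 0.0863 and 0.13). Cd74 was at 133, 51.5, 76.9 and 88.1 CPM in WT mice 1 to 4 and at 32.2, 30.7, 33.7 and 37 CPM in Gαq mice 1 to 4. The highest was WT mouse 1, and no Gαq mouse reached the WT range (log2 fold change -1.39, SE 0.24, adjusted p = 0.000731). With WT mouse 1 omitted, the log2 fold change of Cd74 was -1.11 (adjusted p = 0.00186). H2-Ab1 (-1.44) and H2-Aa (-1.46), the chains of the same receptor, were lower too, and with that mouse omitted their log2 fold changes were -1.13 (adjusted p = 0.00611) and -1.19 (adjusted p = 0.00956). Macrophage markers summed to 446 ± 92 CPM in WT and 402 ± 20.3 CPM in Gαq mice, and their part in this result was not tested. Other gene groups were also counted. Of 15 MHC class I genes 1 was called (6.67%, against 9.66% of all tested genes), H2-D1, which was lower and was not called without WT mouse 1 (adjusted p = 0.143). Of 41 mitochondrial carriers 6 were called lower (14.6%, against 4.73% of all tested genes), and of 40 collagen genes 20 were called higher (50%, against 4.93% of all tested genes). Some of these, such as Slc25a20 and Col1a1, were already counted in the fatty acid and extracellular matrix lists. The natriuretic peptide receptors and Corin had 0 of 4 called. Of the immunity-related GTPases, which interferon γ induces, 3 of 5 were called lower (60%, against 4.73% of all tested genes). Iigp1 was at 61, 27.2, 32.8 and 48.8 CPM in WT mice 1 to 4 and at 10.5, 11.7, 17.1 and 13.6 CPM in Gαq mice 1 to 4, with no overlap (log2 fold change -1.69, SE 0.25, adjusted p = 0.000159). Irgm2 (-0.87) and Igtp (-0.99) were the others, in log2 fold change. Of 6 Ifit genes, which type I interferons induce, 3 were called higher (50%, against 4.93% of all tested genes), namely Ifit2, Ifit1bl1 and Ifit1bl2, and Ifit1, Ifit3 and Ifit3b were not called. Ifit1bl2 was not called without WT mouse 1, 2 or 3 or Gαq mouse 1, 3 or 4 (adjusted p 0.051 to 0.0845). Ifit2 was at 14.8, 19.8, 19.9 and 17.3 CPM in WT mice 1 to 4 and at 36.3, 33.7, 33.1 and 38.2 CPM in Gαq mice 1 to 4, and every Gαq mouse was above every WT mouse (log2 fold change 0.98, SE 0.10, adjusted p = 3.5e-06).

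The water channel genes Aqp8 and Aqp4, also chosen after their values were seen, went in opposite directions, and no list of water channels was counted. Aqp8 was at 0.0463, 3.39, 1.33 and 1.63 CPM in the WT mice and 9.64, 14.7, 14.7 and 17.1 CPM in the Gαq mice (log2 fold change 3.10, adjusted p = 0.000126, or 3.75 without WT mouse 2), and Aqp4 was at 46.9, 27, 24.6 and 27.6 CPM in the WT mice and 9.67, 5.32, 4.99 and 8.6 CPM in the Gαq mice (log2 fold change -2.13, adjusted p = 0.000417). Casq1, the calcium-binding protein of the skeletal sarcoplasmic reticulum, rose from 327 ± 87.4 to 925 ± 73.9 CPM (adjusted p = 6.49e-05). Edn3, a ligand of receptors that signal through Gαq, was at 0, 0.419, 0.363 and 0.238 CPM in the WT mice and 3.09, 5.13, 3.81 and 3.22 CPM in the Gαq mice (log2 fold change 3.83, adjusted p = 8.91e-05). Maob, a monoamine oxidase, fell from 39.4 ± 13.5 to 9.59 ± 0.62 CPM (log2 fold change -2.04, adjusted p = 4.52e-07).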
